A study of Homo sapiens with 4 samples.

Results

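The genes described here were 10 stress genes, NFE2L2, HMOX1, NQO1, GCLM, GCLC, TXNRD1, SRXN1, MT2A, MT1E and MT1X, out of 60708 genes in the count table. They were chosen by symbol. The libraries were TT-seq, which enriches RNA made during a short pulse of 4-thiouridine, here 20 min, so that the counts reflect RNA synthesis more than stored RNA. All 4 libraries came from HEK293 cells, a human embryonic kidney line, that carried a degron on RPB1, the largest subunit of RNA polymerase II. The cells were transiently transfected with RPB1 whose carboxyl-terminal domain (CTD) had 52 heptad repeats. In the 52X WT group (2 libraries) these repeats were wild type, and in the 52X T4A group (2 libraries) threonine 4 of every repeat was replaced by alanine. Both groups received auxin, which removes the endogenous RPB1, 48 h after transfection for another 48 h. Untransfected or auxin-free cells were not analysed here, so the comparison was T4A against WT under the same treatment. Nothing in the labels said that the 2 libraries of a group came from separate cultures, and p-values then measure only the spread between these libraries.

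The transcription factor NRF2, encoded by NFE2L2, is held at a low level by KEAP1, which delivers it to a CUL3 ubiquitin ligase. Oxidants and electrophiles modify KEAP1, NRF2 accumulates, and with a small MAF partner it binds antioxidant response elements (AREs) in front of genes for glutathione synthesis, thioredoxin recycling, quinone reduction and heme breakdown. The repressor BACH1 competes for the same elements. Metallothioneins are small cysteine-rich proteins that bind zinc, copper and cadmium, and their genes are driven by the zinc sensor MTF1 through metal response elements (MREs).

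The deposited counts summed to between 33188536 and 45605027 per library. T4A replicate 1 stood apart, with Pearson correlations of log2 values across genes of 0.985 to 0.988 with the other libraries, against 0.994 to 0.996 among those. POLR2A, the gene of RPB1, had 9640 and 8720 normalized CPM (counts scaled to library depth with TMM factors) in the WT libraries and 7492 and 8083 in the T4A libraries (log2 fold change −0.24, adjusted p = 0.659 in edgeR's quasi-likelihood test). Endogenous and transfected POLR2A cannot be told apart in these counts, nor can the counts tell the WT from the T4A sequence. Of the markers fixed for HEK293, PAX2 (80 to 96 counts), LIN28B (6019 to 9235), VIM and SALL1 were counted in every library and NEFM had at most 6 counts. Of 7 markers of other cell types, PTPRC, CD3E, ALB, CD14 and COL1A1 had at most 102 counts. INS was at 0, but 99.2% of its span was shared with genes of its strand. As for SRXN1 below, that zero gives no level of its RNA. The PAX2 counts lay within those of COL1A1 (62 to 102), over a longer span (94549 against 17532 bases). PAX2 thus did not set HEK293 apart from the other markers. In bulk libraries, fewer expressing cells and less RNA per cell cannot be told apart.

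Of the 10 genes, 7 had enough counts to be tested and 3, SRXN1, MT1E and MT1X, were listed at 0 in every library. Of the 7, 0 differed between T4A and WT at an adjusted p under 0.05 and a fold above 1.5 in the quasi-likelihood test of edgeR, adjusted by Benjamini-Hochberg over all tested genes, where 0.00429% of the 23321 tested genes did (1 gene). At an unadjusted p under 0.05, 0 of 7 passed, against 15.5% of tested genes. DESeq2 also called 0 of 7 and put 0 of 7 at an unadjusted p under 0.05, though it gave no adjusted p for NQO1 and MT2A. For HMOX1 and NQO1 both T4A libraries lay above both WT libraries, 2 of 7 against 24.8% of tested genes, and for 0 of 7 did both lie below, against 24.7%. The plot of each library relative to the WT mean shows all 7.

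**Figure D1:**
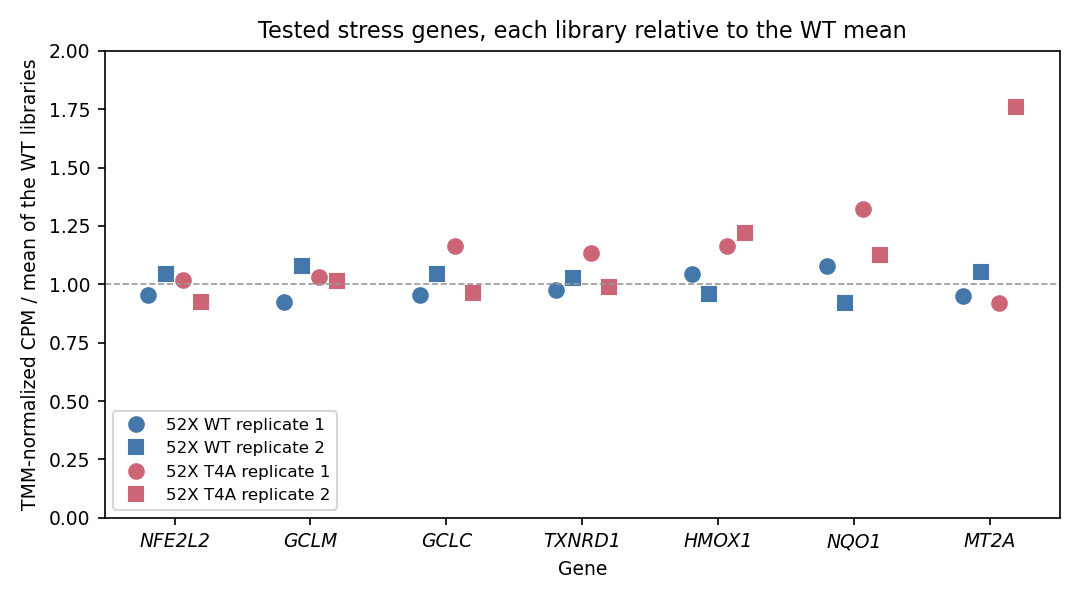
TMM-normalized CPM of the 7 tested genes in each of the 4 libraries, divided by the mean of the 2 WT libraries (y axis), by gene (x axis); circles are replicate 1 and squares replicate 2, blue WT and red T4A. The T4A points of HMOX1 and NQO1 are above both WT points, T4A replicate 2 stands alone in MT2A, and the other genes overlap.

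NFE2L2 (ENSG00000116044, chr2:177227595-177392697 in GRCh38, minus strand) encodes NRF2 itself. Its counts were 6480 and 7996 in the WT libraries and 5929 and 5555 in the T4A libraries, which is 166 and 181 normalized CPM in WT and 177 and 161 in T4A. The groups overlapped, with T4A replicate 2 the lowest and WT replicate 2 the highest. The log2 fold change of T4A over WT was −0.04 ± 0.10 (SE, n = 2 per group; adjusted p = 0.856 in edgeR's quasi-likelihood test), and its 95% interval ran from 0.834-fold to 1.13-fold, inside the fold of 1.5 used for calls. The sign was not stable, and with library sizes in place of TMM it was 0.0093. The counted span of 165103 bases was 4.80 times the RefSeq gene of 34425 bases. Of that span, 66.4% lay under other genes of the same strand, mostly the lncRNA gene ENSG00000213963, which had 0 counts.

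The glutathione genes encode the catalytic (GCLC) and modifier (GCLM) subunits of glutamate-cysteine ligase, the rate-limiting enzyme of glutathione synthesis. GCLC (ENSG00000001084, chr6:53497341-53616970, minus strand) had 126 and 138 normalized CPM in WT and 154 and 127 in T4A, with T4A replicate 1 alone above the WT range. Its log2 fold change was 0.09 ± 0.11 (SE, n = 2 per group; adjusted p = 0.721 in edgeR's quasi-likelihood test; 95% interval 0.891-fold to 1.27-fold). Without T4A replicate 1 its sign turned, at −0.05. GCLM (ENSG00000023909, chr1:93885199-93909456, minus strand) had 56.7 and 66.2 normalized CPM in WT, and its T4A values of 63.3 and 62.3 lay between them. Its log2 fold change was 0.03 ± 0.10 (SE, n = 2 per group; adjusted p = 0.899 in edgeR's quasi-likelihood test; 95% interval 0.869-fold to 1.20-fold), and without WT replicate 1 it was −0.09. For both subunits the interval thus ended short of a 1.5-fold difference.

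TXNRD1 (ENSG00000198431, chr12:104215779-104350307, plus strand) encodes the cytosolic thioredoxin reductase, which returns oxidized thioredoxin to its reduced form. It was the most counted of the 10, with 14779 and 17494 counts in WT and 14724 and 13250 in T4A. In normalized CPM these were 378 and 397 in WT and 439 and 383 in T4A, so that T4A replicate 2 fell within the WT range and T4A replicate 1 above it. The log2 fold change was 0.09 ± 0.11 (SE, n = 2 per group; adjusted p = 0.731 in edgeR's quasi-likelihood test; 95% interval 0.889-fold to 1.27-fold), and −0.01 without T4A replicate 1. Thus NFE2L2 and the 3 targets with the most counts had intervals that excluded a 1.5-fold difference either way.

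HMOX1 (ENSG00000100292, chr22:35380361-35394214, plus strand) encodes heme oxygenase 1, which breaks down heme and is repressed by BACH1. Its counts were 338 and 350 in WT and 324 and 350 in T4A, or 8.64 and 7.94 normalized CPM in WT and 9.65 and 10.1 in T4A. The log2 fold change was 0.25 ± 0.16 (SE, n = 2 per group; adjusted p = 0.456 in edgeR's quasi-likelihood test), with an interval of 0.929-fold to 1.53-fold. Both T4A libraries were above both WT libraries, but the difference did not pass the test.

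NQO1 (ENSG00000181019, chr16:69706996-69726668, minus strand) encodes a quinone reductase widely used as a readout of NRF2. It had 265 and 254 counts in WT and 278 and 244 in T4A, or 6.77 and 5.76 normalized CPM in WT and 8.28 and 7.06 in T4A. Both T4A libraries again lay above both WT libraries, though T4A replicate 2 exceeded WT replicate 1 only slightly. The log2 fold change was 0.29 ± 0.19 (SE, n = 2 per group; adjusted p = 0.468 in edgeR's quasi-likelihood test), and the interval of 0.911-fold to 1.64-fold held both no difference and a 1.5-fold one. HMOX1 and NQO1 were above 0 in 12 of 12 alternative fits, from 0.18 to 0.31 and from 0.16 to 0.40, and were called in 0. These fits reuse the same 4 libraries. With the groups apart, leaving out 1 library could hardly turn the sign, so the shared sign is no further evidence. Without T4A replicate 1, the library that stood apart, HMOX1 and NQO1 were at 0.30 and 0.18. The other values were −0.10 for NFE2L2, 0.03 for GCLM, −0.05 for GCLC, −0.01 for TXNRD1 and 0.82 for MT2A.

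SRXN1 (ENSG00000271303, chr20:646615-653200, minus strand) encodes sulfiredoxin, which repairs overoxidized peroxiredoxins. It was listed at 0 in all 4 libraries. The limit that a count of 0 allows (3 counts, if counts are independent) was 0.0681 to 0.0894 normalized CPM. Of its span, 99.8% lay within another gene of the same strand, ENSG00000270299, which itself had 7 and 5 counts in WT and 6 and 2 in T4A. This was a property of the whole table. All 9293 genes whose entire span was shared with genes of their strand were listed at 0, of which 704 were protein coding, against 27.0% of the 42622 genes that shared no base with a gene of their strand. An overlap on the other strand did not go with zeros, since 20.9% of the 19922 genes overlapped only on the other strand were at 0. A zero for SRXN1 therefore bounds only reads that were assigned to it, and gives no level of its RNA.

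The metallothionein genes lie side by side on chromosome 16. Of 16 metallothionein genes and pseudogenes there, 8 were at 0 in all 4 libraries, and MT2A held 170 of the 195 counts on all of them (87.2%). Apart from MT2A, none had more than 4 counts in a library. MT1F, the next most counted, had 2 and 4 in WT and 4 and 0 in T4A. Genes of this family are close paralogs, and the file headers call the counted alignments unique without saying in what sense. If uniquely mapped reads are meant, reads that fit several copies equally well are in no count. Each value is uncertain to that extent. The plot of counts along the cluster shows this order.

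**Figure D2:**
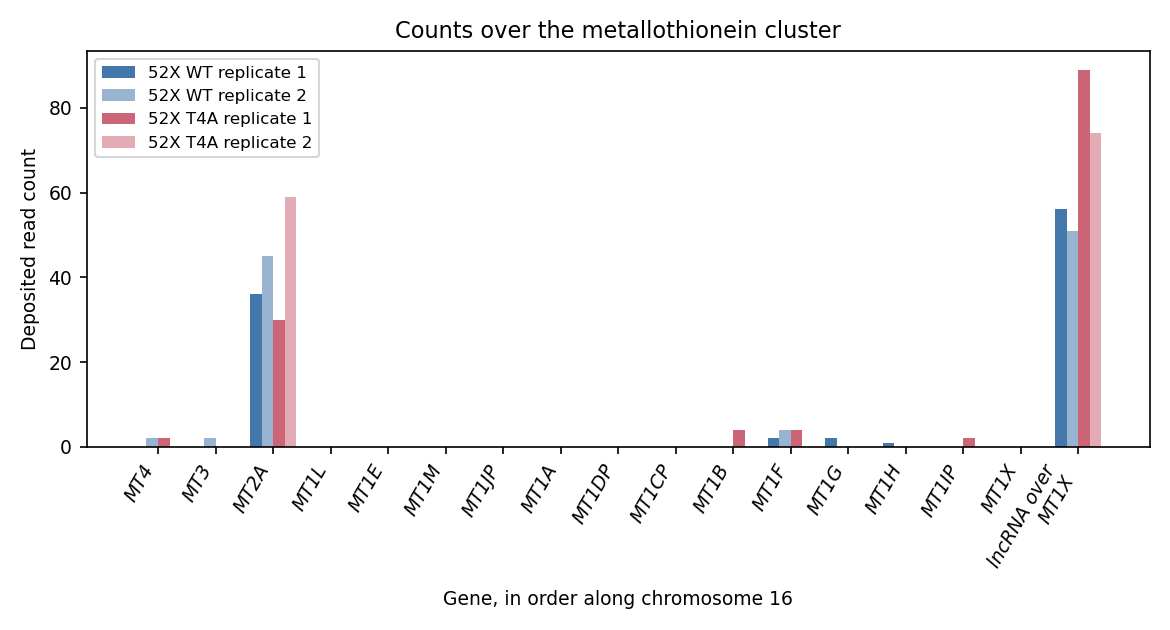
Deposited read counts (y axis) in each library for the 16 metallothionein genes and pseudogenes and for the lncRNA gene ENSG00000259827, which covers MT1X, in their order along chromosome 16 (x axis). Counts stand on MT2A (30 to 59) and on the lncRNA gene (51 to 89), and MT1E and MT1X are at 0.

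MT2A (ENSG00000125148, chr16:56608584-56609497, plus strand) encodes a broadly expressed metallothionein. Its counts were 36 and 45 in WT and 30 and 59 in T4A. Exact 95% Poisson intervals were 25.2 to 49.8, 32.8 to 60.2, 20.2 to 42.8 and 44.9 to 76.1. They cover counting error only and treat each count as an independent event, which was not tested. Genes with few counts such as MT1F (2, 4, 4 and 0) and AKR1C2 (4, 8, 4 and 6) had only even counts. The intervals may thus be too narrow. T4A replicate 1 was the lowest library and T4A replicate 2 the highest, at 0.894 and 1.71 normalized CPM against 0.920 and 1.02 in WT. The T4A libraries thus differed more from each other than the group means did. The log2 fold change was 0.42 ± 0.40 (SE, n = 2 per group; adjusted p = 0.632 in edgeR's quasi-likelihood test), and its interval, 0.705-fold to 2.54-fold, was the widest of the 7. It was 0.82 without T4A replicate 1 and −0.13 without T4A replicate 2, so that 1 library set both its size and its sign.

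MT1E (ENSG00000169715, chr16:56625475-56627112, plus strand) and MT1X (ENSG00000187193, chr16:56682470-56684196, plus strand) encode 2 further isoforms that bind metals. Both were listed at 0 in all 4 libraries, but their positions differed. MT1E shared no base with another gene of its strand. MT1X lay wholly within ENSG00000259827, an lncRNA gene of the same strand that begins at the same base and ends at 56687807. That gene, which was picked after its values were seen, had 56 and 51 counts in WT and 89 and 74 in T4A, or 1.43 and 1.16 normalized CPM in WT and 2.65 and 2.14 in T4A. Both T4A libraries were above both WT libraries. Its log2 fold change was 0.89 ± 0.30 (SE, n = 2 per group), with an adjusted p of 0.252 in edgeR's quasi-likelihood test and an interval on the log2 scale of 0.21 to 1.57. It was above 0 in all 12 alternative fits (0.72 to 1.04), which reuse the same 4 libraries. With the groups apart, leaving out 1 library could hardly turn the sign of this gene. Its log2 fold change was 1.02 without T4A replicate 2 and 0.74 without T4A replicate 1. Of its span 50.3% was shared with genes of its strand, MT1X among them, and its counts are not a measure of MT1X.

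The promoters of the inducible genes differ in the elements they hold. The ARE core was searched as TGACNNNGC and the MRE core as TGCACNC or TGCGCNC, on both strands, in RefSeq windows of 250 bases before to 50 after a start (GRCh38.p14). Of the 10 genes, 8 had a window in the table, and HMOX1 and MT1E had no entry. Among all 35116 windows, 13.3% held the ARE core and 29.6% an MRE core, and 0.601% held at least 4 MRE cores. MT2A held 8 MRE cores and MT1X 4, while GCLC held 2 and GCLM, SRXN1 and the first window of TXNRD1 held 1 each. An ARE core was found in GCLM, in both windows of TXNRD1, in MT2A and in MT1X, and none in the windows of NFE2L2, NQO1, GCLC or SRXN1. A match of letters is a description and not a bound site. Elements further upstream lie outside these windows.

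The 150 bases just before the start are shown for the 2 metallothioneins, because MT1X and the lncRNA gene that covers it begin at the same base, and for the 2 NRF2 targets with the highest level per length. MRE cores are in capitals in the first 2 (chr16:56608434-56608583 and chr16:56682320-56682469, plus strand), and ARE cores in the last 2 (GCLM, chr1:93909431-93909580, minus strand, and the second start of TXNRD1, chr12:104286882-104287031, plus strand).
MT2A: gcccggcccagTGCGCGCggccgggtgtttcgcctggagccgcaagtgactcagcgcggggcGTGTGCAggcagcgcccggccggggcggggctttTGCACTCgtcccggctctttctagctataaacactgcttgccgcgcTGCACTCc
MT1X: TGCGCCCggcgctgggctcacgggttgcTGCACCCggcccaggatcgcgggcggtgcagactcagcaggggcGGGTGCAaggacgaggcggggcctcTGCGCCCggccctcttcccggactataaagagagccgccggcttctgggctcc
GCLM: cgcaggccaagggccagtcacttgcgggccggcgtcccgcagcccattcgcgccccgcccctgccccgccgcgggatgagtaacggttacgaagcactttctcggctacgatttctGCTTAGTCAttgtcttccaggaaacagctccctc
TXNRD1: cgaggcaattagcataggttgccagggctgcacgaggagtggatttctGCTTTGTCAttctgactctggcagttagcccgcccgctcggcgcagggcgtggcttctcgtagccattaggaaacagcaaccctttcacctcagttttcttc
In each metallothionein 4 MRE cores fell within these bases, MT2A at −139, −88, −54 and −8 and MT1X at −150, −122, −78 and −53 from the start. The ARE core of GCLM began at −34 and that of the second start of TXNRD1 at −102, both on the reverse strand. The first window of TXNRD1, not printed, held 2 ARE cores, at −99 on the forward strand and −8 on the reverse strand. No ARE core overlapped an MRE core in any of these windows.

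Levels between genes were compared only as normalized CPM per kb of the counted span. TXNRD1 was highest, with 2.81 to 3.26 over the 4 libraries, a mean above that of 89.9% of tested genes. GCLM followed with 2.34 to 2.73, and its range did not overlap that of TXNRD1. Then came MT2A (0.978 to 1.87), GCLC (1.06 to 1.29) and NFE2L2 (0.973 to 1.10), whose ranges overlapped from one to the next. HMOX1 (0.573 to 0.731) and NQO1 (0.293 to 0.421) were lowest, apart from each other and from the rest, and the NQO1 mean exceeded that of 48.9% of tested genes.

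This order depended on the length used. Since wholly shared spans held no counts, levels were also computed per kb not shared with a gene of the same strand, a scale chosen after the data were seen. NFE2L2 then moved from 1.04 to 3.08 CPM per kb (means over 4 libraries) and was level with TXNRD1 at 3.01, and GCLC moved from 1.14 to 2.13. Their unshared spans, 55537 and 63948 bases for NFE2L2 and GCLC, were still longer than their RefSeq genes of 34425 and 47761 bases. Levels per RefSeq length were not computed. GCLM, MT2A, HMOX1 and NQO1 shared no base and kept their values. On this scale NFE2L2, TXNRD1, GCLM and GCLC were all above MT2A, HMOX1 and NQO1, with no overlap between these sets. The plot of levels shows both scales.

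**Figure D3:**
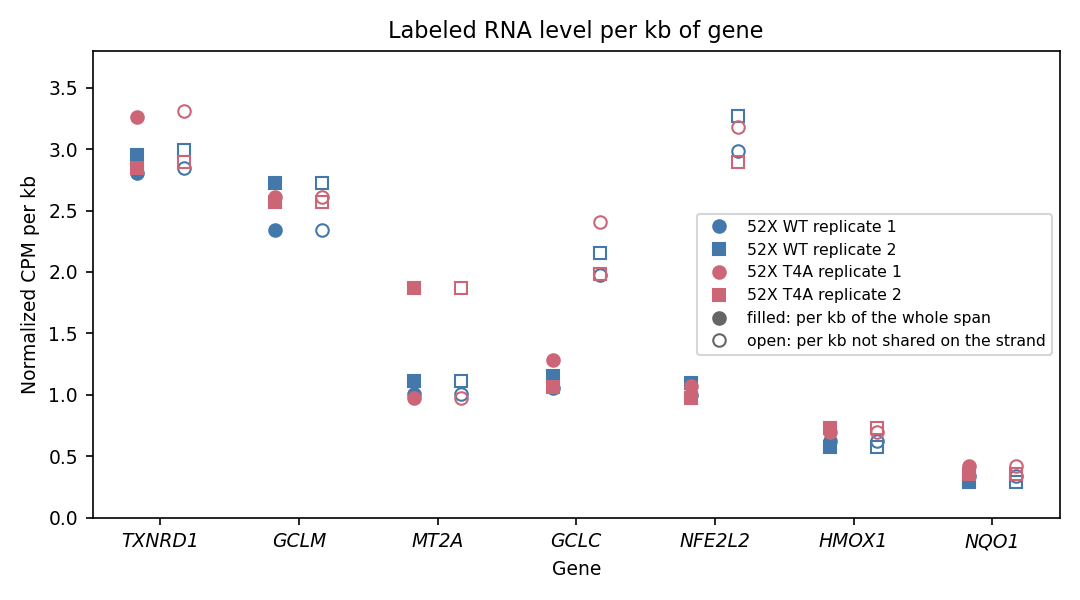
Level of labeled RNA in normalized CPM per kb (y axis) of the 7 tested genes (x axis) in each library, with filled symbols per kb of the whole span and open symbols per kb not shared with a gene of the same strand. NFE2L2 and GCLC are higher on the second scale (3.08 and 2.13 against 1.04 and 1.14), and the other genes keep their values or nearly so.

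The machinery that sets NRF2 activity was described with a list of 17 regulators, all tested, of which 0 were called. At an unadjusted p under 0.05, MAFF was higher and BTRC, an F-box protein gene named here after its values were seen, was lower, 2 of 17 against 15.5% of all tested genes. The median log2 fold change was −0.08 against −0.00076 over all tested genes. KEAP1, the sensor that captures NRF2, had 48.6 and 48.6 normalized CPM in WT and 40.3 and 49.7 in T4A (log2 fold change −0.11 ± 0.12, SE). CUL3, the scaffold of its ubiquitin ligase, gave 0.01 ± 0.11. BACH1, the competing repressor, gave 0.10 ± 0.11, the related factor NFE2L1 0.02 ± 0.09, and SQSTM1, an autophagy receptor that sequesters KEAP1, −0.08 ± 0.10. The T4A and WT ranges of KEAP1 overlapped, with T4A replicate 1 lowest.

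The 3 small MAF partners had unlike values. MAFF had 20.8 and 21.1 normalized CPM in WT and 30.3 and 32.0 in T4A, a log2 fold change of 0.57 ± 0.11 (SE, n = 2 per group), with both T4A libraries higher. Its unadjusted p was 0.000804 by edgeR's quasi-likelihood test and its adjusted p was 0.173, so that it did not pass. Without T4A replicate 1 it was called, at 0.62 (adjusted p = 0.00921 by edgeR's quasi-likelihood test), and over 12 alternative fits its adjusted p ran from 0.00178 to 0.586. MAFK had 27.2 and 22.3 normalized CPM in WT and 8.10 and 24.8 in T4A, and MAFG 23.9 and 20.3 in WT and 12.1 and 26.0 in T4A. In both genes T4A replicate 1 alone was low, and T4A replicate 2 fell within the WT range or above it. Their log2 fold changes were −0.59 ± 0.40 and −0.21 ± 0.29. MAFK reached −1.63 without T4A replicate 2 and 0.01 without T4A replicate 1. Without T4A replicate 2, MAFK and MAFG were both called lower, with adjusted p of 6.97e-18 and 5.55e-06 in edgeR's quasi-likelihood test, against 0.499 and 0.747 with all libraries and at most 0.983 and 0.946 over 12 alternative fits.

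**Figure D4:**
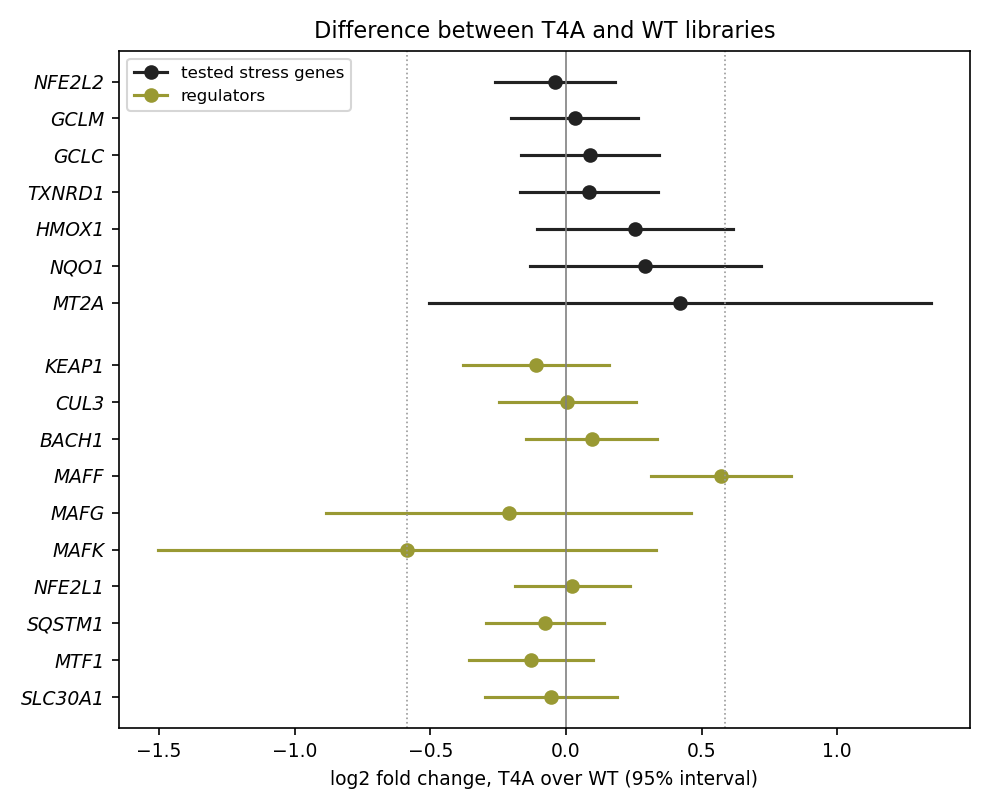
Log2 fold change of T4A over WT (x axis) for the 7 tested stress genes (black) and 10 other genes (olive). Points are estimates and lines 95% intervals (2 libraries per group), and dotted lines mark a fold of 1.5 either way. The olive genes, labeled regulators, include SLC30A1, a zinc exporter. Intervals of all 7 stress genes include 0, that of MAFF (0.31 to 0.83) does not, and those of MT2A, MAFG and MAFK are wide.

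A wider list of 43 other genes assigned to NRF2, of which 39 were tested, had a median log2 fold change of 0.03. None was called. At an unadjusted p under 0.05 there were 4 higher and 5 lower genes (23.1%, against 15.5% of all tested genes). For 11 genes both T4A libraries were above both WT libraries and for 11 both were below, against 24.8% and 24.7% of all tested genes, and 17 overlapped. PIR, which encodes pirin, an iron-binding nuclear protein, had the largest difference, with 32.2 and 30.3 normalized CPM in WT and 18.9 and 17.5 in T4A. Its log2 fold change was −0.78 ± 0.12 (SE, n = 2 per group; adjusted p = 0.148 in edgeR's quasi-likelihood test). Both T4A libraries lay below both WT libraries, but the call depended on the fit. PIR passed in 6 of 12 alternatives, with an adjusted p from 1.53e-05 (DESeq2) to 0.585.

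BLVRA, encoding biliverdin reductase A, which acts on the product of heme oxygenase, had 10.4 and 12.4 normalized CPM in WT and 7.54 and 7.87 in T4A (log2 fold change −0.56 ± 0.17, SE). GSTM3, a glutathione transferase gene, had 7.03 and 6.44 in WT and 9.95 and 9.89 in T4A (0.56 ± 0.16). Both had libraries that did not overlap between groups, in opposite directions, and neither passed the adjusted threshold with all libraries. Without T4A replicate 2, BLVRA was called (−0.61, adjusted p = 0.0143 in edgeR's quasi-likelihood test) and GSTM3 had an adjusted p of 0.0348 at a fold under 1.5 (0.55), where their adjusted p over 12 alternative fits reached 0.716 and 0.70. Of the genes at an unadjusted p under 0.05, SLC7A11, PRDX1 and SESN2 were the other 3 higher ones and ABCC1, ME1 and GSR the other 3 lower ones, named here after their values were seen. SLC7A11, the cystine importer that feeds glutathione synthesis, had 60.9 and 66.0 normalized CPM in WT and 93.9 and 87.6 in T4A (0.52 ± 0.09; adjusted p = 0.150 in edgeR's quasi-likelihood test). PRDX1, a peroxiredoxin, had 190 and 184 in WT and 250 and 234 in T4A (0.37 ± 0.09). By DESeq2 the adjusted p of SLC7A11, PRDX1 and ME1 was 0.000115, 0.000459 and 0.0130, at folds under 1.5. In edgeR's quasi-likelihood test with scaling to mitochondrial genes it was 0.297, 0.659 and 0.578. GSR, glutathione reductase, had 59.5 and 61.5 in WT and 52.5 and 49.9 in T4A (−0.24 ± 0.09).

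The metal side was read from 18 further genes of metal sensing and transport, of which 16 were tested, 0 were called and 1 had an unadjusted p under 0.05 (6.25%, against 15.5% of all tested genes), with a median log2 fold change of −0.07. MTF1, the zinc-sensing activator of metallothioneins, had 100 and 110 normalized CPM in WT and 102 and 89.7 in T4A (−0.13 ± 0.10, SE). SLC30A1, a zinc exporter induced by MTF1, had 64.1 and 75.9 in WT and 69.4 and 65.3 in T4A (−0.06 ± 0.11). In both genes the groups overlapped. Among zinc and manganese transporters, SLC30A6 was the gene at an unadjusted p under 0.05, with 68.0 and 71.8 in WT and 61.0 and 57.8 in T4A (−0.24 ± 0.09). SLC39A13 gave −0.48 ± 0.27, with 4.34 and 3.99 in WT and 2.26 and 3.70 in T4A. Its log2 fold change was −0.89 without T4A replicate 2 and −0.16 without T4A replicate 1. SLC30A10 gave 0.42 ± 0.19, with 5.47 and 4.76 in WT and 7.42 and 6.31 in T4A.

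**Figure D5:**
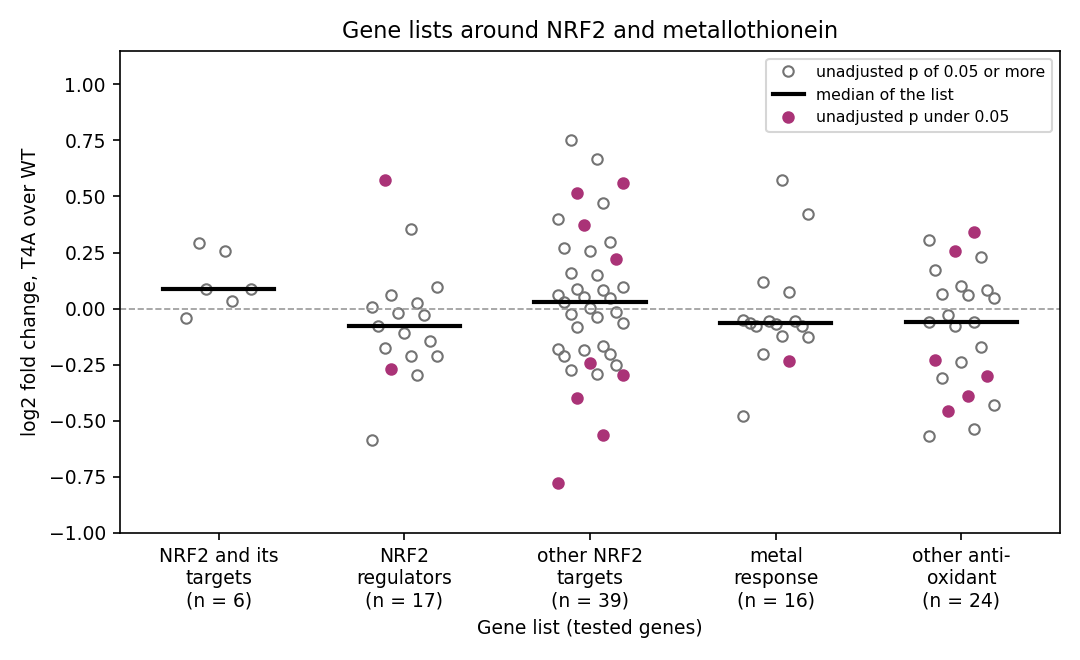
Log2 fold change of T4A over WT (y axis) for the tested genes of 5 lists (x axis); each point is a gene, filled where its unadjusted p was under 0.05, and the bar is the median of the list. Medians run from −0.08 to 0.09, and the list of other NRF2 targets holds filled points on both sides of 0.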

How the data were processed

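Per the labels and the series design, RNA labeled with 4-thiouridine was fragmented, biotinylated, pulled down and made into strand-specific libraries from 50 ng of RNA per sample. The submitters' processing notes name FastQC, cutadapt (4.6), STAR (2.7.11b), Picard and deepTools (3.5.6) and GRCh38. The deposited values are raw featureCounts counts per gene over the whole gene span, introns included, from alignments that the file headers call unique. The version and strand setting of the counting and the annotation release are not given in the sources used here. Symbols were joined by Ensembl ID, which named 58700 of 60708 genes, and coordinates are those of the table. The counts were fitted with edgeR (4.0.16, R 4.3.3) by the quasi-likelihood test after filterByExpr and TMM, in 1 fit of all 4 libraries, with Benjamini-Hochberg adjustment over 23321 genes. Calls needed an adjusted p under 0.05 and a fold above 1.5. DESeq2 (1.42.0), other scalings and filters, a gene length trend, a replicate block and leaving out each library were alternatives. Only the main edgeR fit was tested on simulated counts, drawn with the same dispersion for every gene and no library set apart. That simulation differs from these libraries, and the alternatives were not tested in this way. Replicates differed by more than sampling noise. Promoter sequences are from RefSeq (GRCh38.p14).

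The 10 genes and all lists were chosen with earlier results of these data known. Genes named beyond the 10 were POLR2A and 10 fixed genes, which were regulators and the zinc exporter SLC30A1. Per wider list, up to 3 tested genes with the largest fold change and a mean of at least 50 counts were also named. Others named, apart from the markers and genes overlapping the 10, were picked after their values were seen. MT1F, PRDX2, ABCB6 and UGT1A6 are among these. SOD2 and PECAM1 were not analysed here. 1 marker of HEK293 is not reported here.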

Additional observations from a re-analysis of the deposited data

How the results depend on the processing

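None of the 7 tested stress genes was called under any of 12 alternative fits or without the fold threshold, and the 6 tested NRF2 genes had a median log2 fold change from 0.0094 to 0.18 over the fits. Across the whole table, against 1 gene called, DESeq2 called 99 genes, scaling to mitochondrial genes 195, no filter on low counts 65, and removing the gene length trend 2. A block for the replicate number gave 433 genes, and with the block and the length trend removed 0. The deviations of same-numbered libraries correlated at −0.069. With T4A replicate 1 apart, this value cannot show whether same-numbered libraries shared a batch, and the labels give only their numbers. PIR, MAFK and GPX1 were among the genes called under the block (−0.78, −0.78 and −0.72). Leaving out 1 library gave 0 (without WT replicate 2) to 2500 genes (without T4A replicate 2), with 195 without T4A replicate 1 and 3 without WT replicate 1. In these fits the lone library of a group is assumed to vary like the others. At an unadjusted p under 0.05 they gave 0 to 1 of the 7, the 1 being MT2A without T4A replicate 1 (adjusted p = 0.30 by edgeR's quasi-likelihood test, range 0.30 to 0.895 over its alternatives). NFE2L2 turned to 0.0093 with library sizes in place of TMM. With 1 library left out, log2 fold changes ran from −0.12 to 0.011 for NFE2L2, −0.086 to 0.13 for GCLM, −0.049 to 0.20 for GCLC, −0.0080 to 0.16 for TXNRD1 and −0.13 to 0.82 for MT2A. The cause of these moves was not tested. With 30 to 59 counts per library, the MT2A interval of 0.705-fold to 2.54-fold did not exclude a level over 1.5-fold higher in T4A.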

Other observations

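Antioxidant enzymes outside the NRF2 lists were read from a list of 28 genes, of which 24 were tested. None was called. An unadjusted p under 0.05 was reached by 2 higher and 4 lower genes (25.0%, against 15.5% of tested genes), and over the 24 the median log2 fold change was −0.06. The 2 higher ones were the glutaredoxin genes GLRX2 (30.9 and 32.1 normalized CPM in WT, 41.6 and 38.3 in T4A) and GLRX5 (35.6 and 37.8 in WT, 44.4 and 43.2 in T4A). The 4 lower ones were MSRB2 and MSRB3, methionine sulfoxide reductase genes, and TXNRD2 and TXNRD3, relatives of TXNRD1. MSRB2 had 11.1 and 9.76 normalized CPM in WT and 7.51 and 7.69 in T4A, and TXNRD2 had 69.7 and 69.5 in WT and 45.9 and 60.3 in T4A. Without T4A replicate 2 the log2 fold change of TXNRD2 was −0.62, against −0.39 with all libraries. Apart from MSRB2, these genes were named after their values were seen.

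GPX1 and GPX4, the glutathione peroxidases that reduce hydrogen peroxide and lipid peroxides, had 1 library apart. GPX1 had 21.7 and 24.5 normalized CPM in WT and 8.46 and 22.7 in T4A, and GPX4 had 7.89 and 8.33 in WT and 2.62 and 8.56 in T4A. In both, T4A replicate 1 alone was low, as in MAFK and MAFG. Their log2 fold changes were −0.57 ± 0.36 and −0.53 ± 0.43 (SE, n = 2 per group), and −1.46 and −1.64 without T4A replicate 2, where both were called (adjusted p = 1.38e-14 and 3.14e-10 in edgeR's quasi-likelihood test, and up to 0.976 and 0.893 over 12 alternative fits). Without T4A replicate 1 they were −0.02 and 0.08.

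PRDX2, ABCB6 and UGT1A6, other genes of these lists, were listed at 0 in all 4 libraries, and the whole span of each was shared with genes of its strand, as for MT1X.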
